A study of Mus musculus with 10 samples.

Results

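The regions described here are the RelA-bound regions of primary macrophages after 8 h of lipopolysaccharide (LPS), with and without dexamethasone (Dex) given late. The macrophages were grown from bone marrow of C57BL/6J mice, and RelA was mapped by chromatin immunoprecipitation and sequencing (ChIP-seq). Both groups received LPS for 8 h, and 1 of them also received Dex at an hour that the labels call late without stating it. Each group was 1 library, so the spread between replicates is unknown and no test between the groups was made. Outside the regions also called in input DNA of untreated cells, the list without Dex held 1878 regions and the list with late Dex held 225, out of 115077 regions in the 10 lists of the series. Regions of the 2 lists were taken as shared when they had at least 1 bp in common. By that rule 202 regions were in both lists (kept), 1676 were listed without Dex alone (not called with late Dex) and 23 with late Dex alone. No region of either list met more than 1 region of the other. The other lists set beside these are RelA at rest (0 h) and at 3 h of LPS, RelA after 3 h of Dex followed by 0, 3 or 8 h of LPS, and GR after Dex or after LPS and Dex, all from cells of the same strain. Positions are on the mouse build mm9.

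RelA, also called p65, is the subunit of NF-κB that carries its main activation domain. In resting macrophages it is held in the cytoplasm by inhibitors of the IκB family, and LPS, sensed by Toll-like receptor 4, leads to the loss of these inhibitors and the entry of RelA into the nucleus. Dex activates the glucocorticoid receptor (GR), a nuclear receptor that binds DNA itself or sits on chromatin through other factors and is known for holding down many NF-κB target genes. The study set different times of Dex against each other, and the labels separate Dex given 3 h before LPS from Dex given late.

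The strength of a region is given below as its highest tag density (MaxD), on the scale of the deposited lists, whose normalization between libraries is not stated. Rank 1 is the highest MaxD of the list without Dex. A region that was not called with late Dex may still have held RelA below the level at which the authors called regions.

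RelA was called with late Dex at 45 of the 50 strongest regions, and the share fell as lower ranks were taken in. All of the 10 regions of highest MaxD were called with late Dex (Wilson 95% interval of the share 72.2 to 100%, which covers counting error over regions only). The number was 24 of the highest 25, 45 of the highest 50 and 71 of the highest 100. Over the whole list the share was 10.8%. From the highest 50 to the highest 100 the share thus went from 90.0% (78.6 to 95.7) to 71.0% (61.5 to 79.0). Among the highest 200 it was 58.0% (51.1 to 64.6), and among the highest 500 it was 32.4% (28.4 to 36.6). Below rank 1000, 14 of 878 regions were kept.

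**Figure D1:**
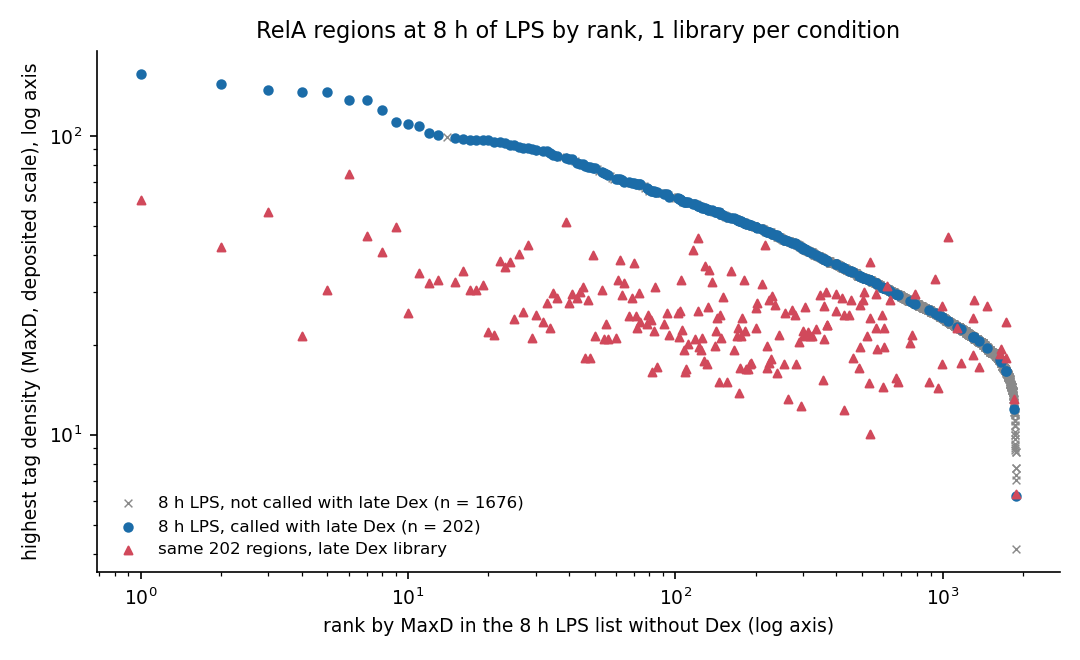
Each RelA region at 8 h of LPS is placed by its rank (horizontal log axis) and its MaxD (vertical log axis); filled circles are the 202 regions called with late Dex, crosses the 1676 that were not, and triangles the MaxD of the same 202 regions in the late Dex library. Circles fill the 10 highest ranks and crosses appear from rank 14, while the triangles lie below the circles at every rank down to 500.

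When the list was divided into 10 equal bins of rank, bin 1 (MaxD 50.4 to 160.4) kept 113 of 188 regions, 60.1% (53.0 to 66.8). Bin 2 (38.1 to 50.4) kept 38, or 20.2% (15.1 to 26.5), and bin 3 (32.1 to 38.1) kept 20, or 10.6% (6.99 to 15.9). Each of the lower bins kept between 2 and 9 regions. The share fell from bin to bin as far as bin 6, and the intervals of bins 5 to 10 overlapped.

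**Figure D2:**
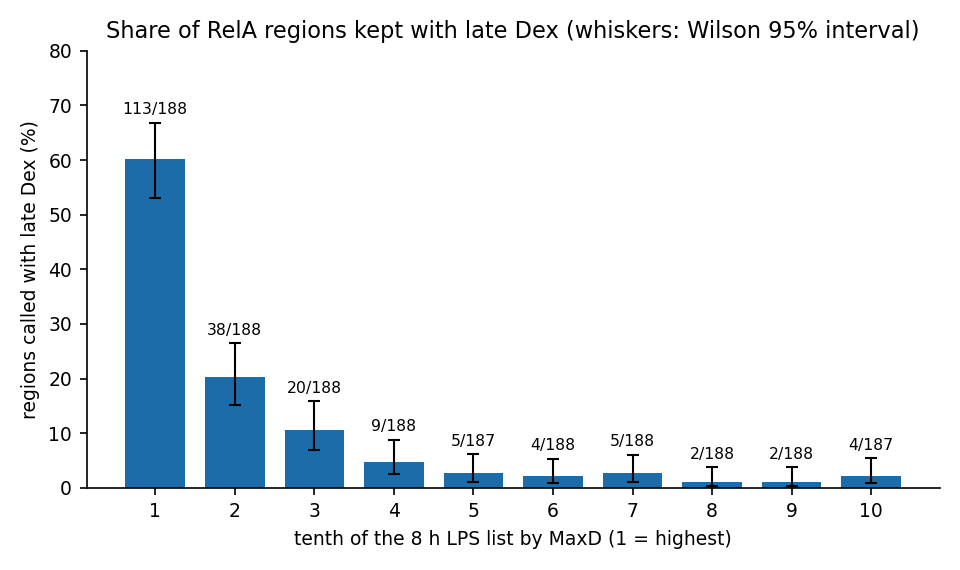
Bars give the percentage of RelA regions called with late Dex in each of 10 bins of the list without Dex, ordered by MaxD, with the counts above; whiskers are Wilson 95% intervals, which cover counting error only. Bin 1 stands at 60.1%, bin 2 at 20.2%, and the last 6 bins lie below 3%.

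The 10 strongest regions without Dex differed in how much MaxD they held with late Dex. The region of rank 1, at chr17:18037481-18038376, had a MaxD of 160.4 without Dex and 61.1 with late Dex. A second strong region, chr17:18021416-18022350 (rank 9), lay on the same chromosome and had 111.5 and 49.6. Both of these were in the highest 5 of the late list.

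At chr17:13202580-13203586 (rank 6) the MaxD was 132.2 without Dex and 74.4 with late Dex, and this was the strongest region of the late list. At chr10:18734654-18735834 (rank 3) the values were 142.1 and 55.5. The region chr15:6518818-6519807 (rank 2) had 148.5 and 42.6. These 3 regions were already called at rest, with MaxD of 37.6, 31.9 and 25.01 at 0 h, and each had a higher MaxD with late Dex than at rest. The region of rank 1 was also called at rest, with a MaxD of 25.1.

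The lowest late values among the 10 were at ranks 4, 10 and 5. At chr10:37057705-37058881 (rank 4) the MaxD was 140.5 without Dex and 21.3 with late Dex, against 18.1 at rest. It stood at rank 142 of the late list. At chr6:134650528-134651439 (rank 10) the values were 109.7 and 25.6, and at chr2:57149777-57150606 (rank 5) they were 140.5 and 30.6, and neither was called at rest. The remaining regions of the 10 were chr19:6945026-6945968 (rank 7), with 132.0 and 46.2, and chr11:117807370-117808469 (rank 8), with 122.3 and 40.8.

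The highest-ranked region without a late Dex counterpart was chr2:136762371-136763206 (rank 14), with a MaxD of 99.0 without Dex. It was the exception among the highest 25. It was a GR region in both GR libraries, with a GR MaxD of 47.1 in cells given Dex without LPS and 169.3 in cells given both. The next were chr11:64468352-64469331 (rank 31, MaxD 89.2), chr15:67612236-67613083 (rank 37, 85.2), chr6:129182571-129183314 (rank 38, 84.6) and chr16:84621420-84622204 (rank 42, 82.3). These 4 had a MaxD of 62.1 to 82.0 at 3 h of LPS.

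Ranks 51 to 59 held the other 5 of the 10 strongest uncalled regions. They were chr15:50603937-50604717 (MaxD 77.6), chr3:60275768-60276480 (76.2), chr2:129206287-129207090 (73.4), chr10:10168666-10169454 (72.2) and chr16:24629113-24629836 (71.9). The region on chr3 was also not called at 3 h of LPS, and it was the 1 region of the highest 100 of which this was true. The region chr16:24629113-24629836 was the only 1 of the 10 called at rest, with a MaxD of 19.4. None of the 10 was called in any library pretreated with Dex. Few regions of the whole list were called in those libraries, 1.60% with 0 h and 0.639% with 3 h of LPS. With 8 h of LPS it was 2 of the 202 kept and 1 of the 1676 uncalled regions. All 10 met a GR region of LPS and Dex, with GR MaxD from 28.3 to 169.3, as did 99 of the highest 100 regions and 85.8% of the list.

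**Figure D3:**
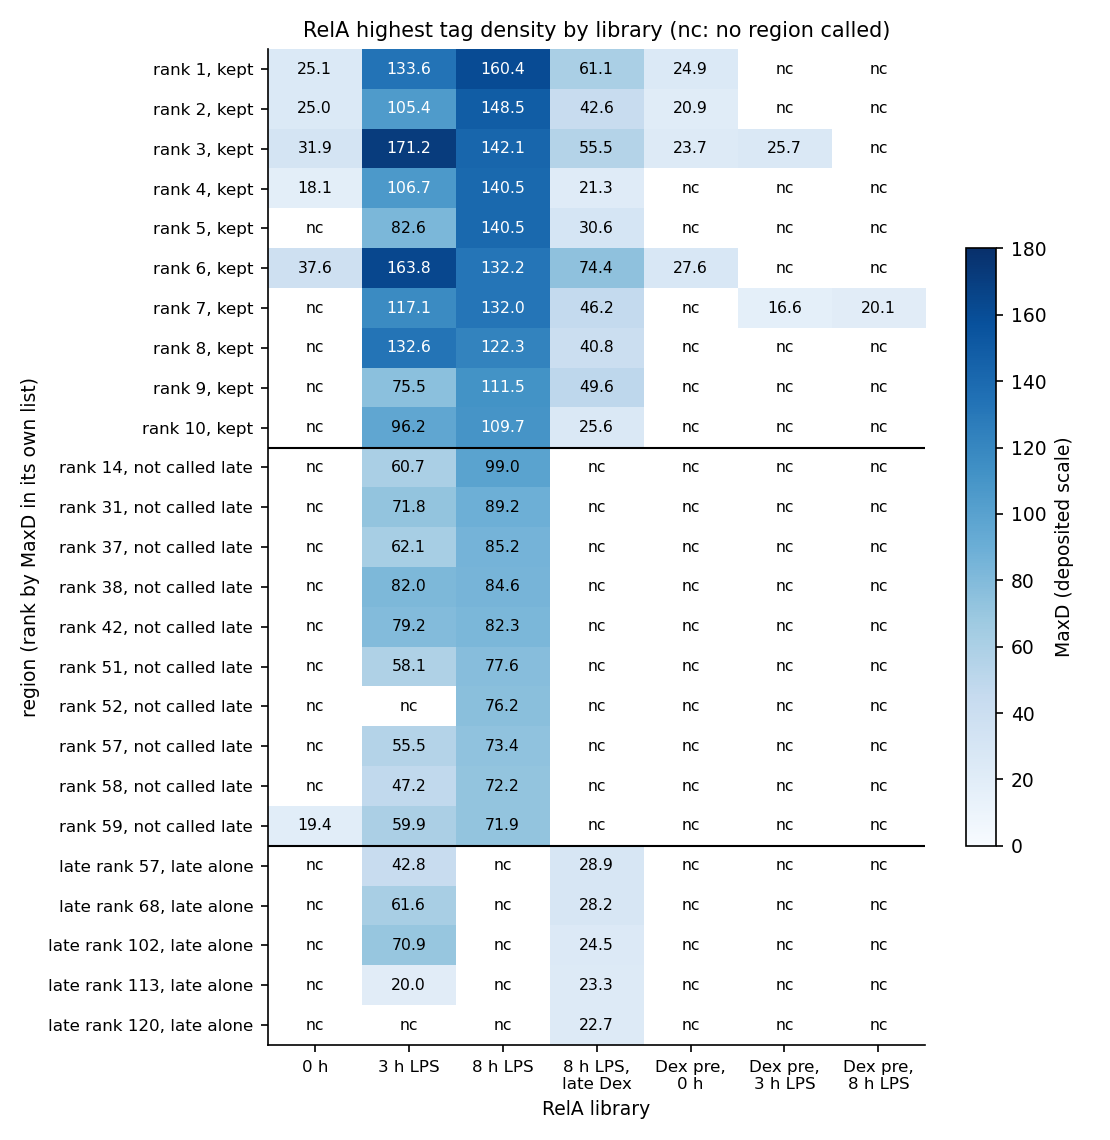
Rows are the 10 strongest kept regions, the 10 strongest regions not called with late Dex and the 5 strongest of late Dex alone, columns are the 7 RelA libraries, and each cell gives MaxD on the deposited scale (nc, no region called; 1 library per column). The kept rows run from 21.3 to 74.4 in the late Dex column, and the uncalled rows have values of 47.2 to 82.0 at 3 h where a region was called.

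Where a region was called in both lists, MaxD was lower with late Dex at 187 of 202 regions. The median ratio of late Dex to no Dex was 0.435 (quartiles 0.340 and 0.627). This median depends on rank, because a weak region enters both lists only if its late value is high enough to be called. In the highest 50, where 45 regions were kept, the median ratio was 0.329 (0.275 and 0.381), and in the highest 100 it was 0.347 (0.285 and 0.395), with a range from 0.152 to 0.611. Mean tag density gave nearly the same, with a median ratio of 0.364 in the highest 100, and the authors' z-score gave 0.293.

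Whether these ratios reflect RelA, sequencing depth or the scaling of the lists was not tested. The regions over input DNA, called also without any antibody, were set beside them. Of the 12 such regions without Dex and 25 with late Dex, 8 were in both lists. Their MaxD was higher with late Dex at 7 of 8, with a median ratio of 1.93 (range 0.737 to 5.11). MaxD with late Dex was lower at most kept RelA regions and higher at most of these 8. The 8 are only those called in both lists, and the cause of the difference was not tested.

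**Figure D4:**
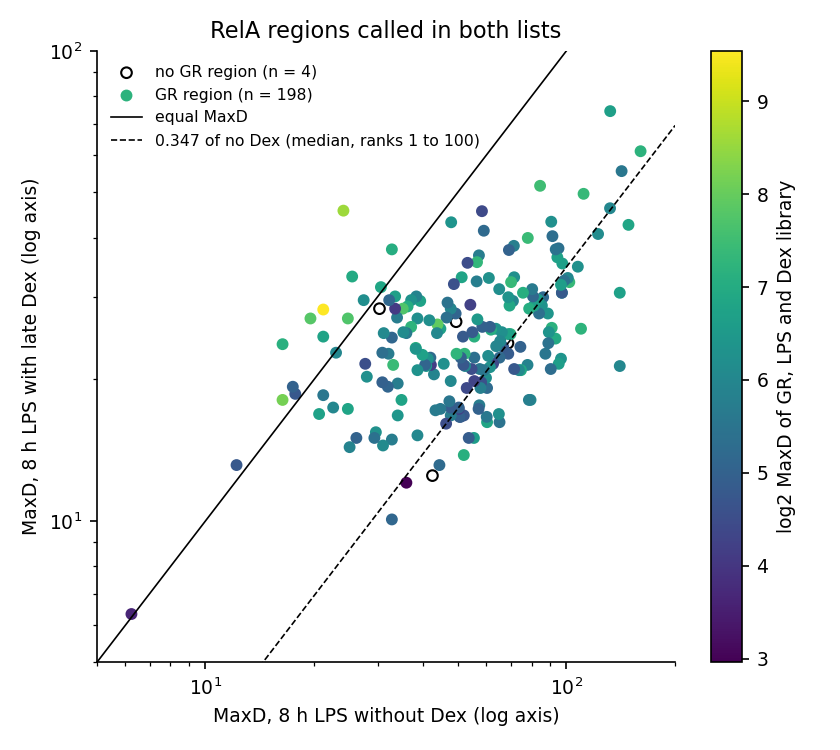
Each point is 1 of the 202 regions in both lists, with MaxD without Dex on the horizontal and with late Dex on the vertical log axis; colour is the log2 MaxD of the GR region there in the LPS and Dex library, and open circles are the 4 regions without one. The solid line marks equal values and the dashed line 0.347 of the value without Dex; 15 points lie above the solid line, all with a MaxD without Dex under 33.

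Among regions called in both lists, the order by MaxD was only partly preserved. Across the 202 kept regions, which share their libraries, the MaxD with and without Dex had a Spearman correlation of 0.42. Across the 71 kept in the highest 100 it was 0.51. A weak region is in this set only if its late value was high enough to be called. A low correlation is therefore partly built in by the calling. In bin 1, the highest ratios were at chr1:74822179-74822886 (rank 122, MaxD 58.3 without and 45.6 with late Dex, ratio 0.782), chr8:93605654-93606461 (rank 116, 59.0 and 41.4, 0.702) and chr7:25905309-25906090 (rank 161, 53.2 and 35.4, 0.665). The lowest were at ranks 4 and 5, given above with ratios of 0.152 and 0.218, and at chr17:29532022-29532950 (rank 21, 95.2 and 21.6, 0.227). The 3 regions with the high ratios stood at ranks 8, 12 and 24 of the late list. Those with the low ratios stood at ranks 142, 41 and 135. Both groups were chosen by a ratio that contains the late MaxD, so this order was partly fixed by the choice.

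The 10 strongest regions of the late list had ranks from 1 to 1046 in the list without Dex. Besides the regions of ranks 6, 1, 3, 9 and 7, they included chr2:167579181-167580016 (rank 39), with a MaxD of 84.5 without Dex and 51.6 with late Dex. The neighbouring region chr2:167602622-167603530 (rank 28) was also among them, with 90.7 and 43.3. At chr1:84296190-84296853 (rank 216) the values were 47.9 and 43.2. The region chr2:167579181-167580016 and the region of rank 216 were not called at rest but were called in cells given Dex without LPS, with MaxD of 30.6 and 28.1.

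A small group of weak regions had a higher MaxD with late Dex than without, on lists whose scaling is unknown. The MaxD was higher with late Dex at 15 of the 202 kept regions, all of rank 535 or below. The authors' z-score was higher at 6 of the 202. The highest MaxD ratio, 1.90, was at chr19:22022348-22022871 (rank 1046), with 24.1 without Dex and 45.7 with late Dex. This region had been among the stronger ones at 3 h of LPS, with a MaxD of 132.6, and its GR MaxD with LPS and Dex was 385. By ratio, the next were chr11:72242793-72243193 (rank 1717), with 16.3 and 23.8, and chr11:109271781-109272179 (rank 1465), with 19.53 and 26.95.

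At chr17:26672161-26672662 (rank 1307) the values were 21.2 and 28.2. Its MaxD was 108.2 at 3 h of LPS, and it carried the highest GR MaxD outside input in both GR libraries, 346 with Dex and 746 with LPS and Dex. At chr2:32243155-32243714 (rank 932) RelA had 25.5 and 33.1. All 15 regions were called at 3 h of LPS, as were 83.9% of the whole list, with a higher MaxD there than at 8 h at 13 of them. All 15 met GR of LPS and Dex, as did 85.8% of the whole list, with a median GR MaxD of 123.6. Of the 40 kept regions below rank 500, which include these 15, 38 were called at 3 h and 29 were higher there, and 39 met such GR with a median of 64.5. Of the 1338 uncalled regions below rank 500, 1053 were called at 3 h and 554 were higher there, and 1093 met such GR with a median of 31.5. Since low ranks are kept only with a high late value, ratios near 1 there are partly built in by the calling.

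The lowest-ranked kept regions were chr7:17643494-17643783 (rank 1724), chr4:147461605-147461856 (rank 1850) and chr12:5623193-5623468 (rank 1877). The MaxD at the first was 16.3 without and 18.1 with late Dex, and at the second 12.2 and 13.1. The last had 6.24 and 6.34, with 7.23 at 0 h, 6.42 at 3 h and 8.56 after pretreatment and 8 h of LPS. Its MaxD thus stayed between 6 and 9 in all 5 RelA libraries in which it was called.

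Within bands of rank, kept regions had higher median RelA at 3 h than uncalled ones. In ranks 101 to 200 the kept regions had a median MaxD of 55.5 at 8 h, close to the 53.5 of the uncalled. Their median MaxD at 3 h was 54.6 (quartiles 45.0 and 70.0; 45 regions), against 45.0 (36.2 and 59.3; 55 regions). The quartiles overlapped. In ranks 201 to 500 the 3 h medians were 42.8 and 33.6, in ranks 501 to 1000 they were 38.9 and 26.8, and below rank 1000 they were 29.8 and 21.2. In the highest 100 they were 75.5 and 56.0. The 8 h medians of kept and uncalled regions also differed, most in the highest 100 (83.9 and 67.7) and less in ranks 201 to 500 (41.8 and 38.6), ranks 501 to 1000 (30.9 and 28.0) and below (20.1 and 19.8).

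Expressed as shares, ranks 201 to 500 kept 23.8% (17.5 to 31.4) of the 143 regions above the median 3 h MaxD of their band and 7.69% (4.35 to 13.2) of the 143 others called at 3 h. The median MaxD at 8 h of these groups was 41.3 and 37.5. In ranks 101 to 200 the shares were 54.0% (40.4 to 67.0) and 36.0% (24.1 to 49.9), and these intervals overlap. The ratio of MaxD at 8 h to that at 3 h was lower in kept regions in each band. Its medians were 1.13 and 1.26 in the highest 100, 1.01 and 1.18 in ranks 101 to 200, 0.964 and 1.16 in ranks 201 to 500, 0.761 and 1.06 in ranks 501 to 1000, and 0.606 and 0.933 below. Of all kept regions 199 of 202 were called at 3 h, 98.5% (95.7 to 99.5), against 82.2% (80.3 to 83.9) of those not called, where the whole list had 83.9%.

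GR medians at the same places followed no single order in the upper ranks and were higher at kept regions below rank 200, with overlapping quartiles in every band. Of the kept regions, 198 of 202 overlapped GR in the library of LPS and Dex, as did 1414 of the 1676 uncalled ones, against 85.8% over the whole list. In the highest 100 its median MaxD was 74.8 at kept and 49.5 at uncalled regions, which also differed in RelA at 8 h. The order was the reverse in the highest 50, with 78.98 at 45 kept and 88.5 at 5 uncalled regions, and in ranks 101 to 200, with 40.3 and 53.9. In ranks 201 to 500 it was 65.5 (46.3 and 84.2) and 38.7 (28.8 and 58.0), in ranks 501 to 1000 it was 59.4 (34.9 and 101.7) and 33.5 (22.1 and 48.6), and below rank 1000 it was 84.9 (36.1 and 203.7; 14 regions) and 29.6 (19.7 and 46.2; 677 regions). In ranks 201 to 500, 24.3% (17.9 to 32.0) of the regions above the band's median GR MaxD were kept and 7.04% (3.87 to 12.5) of those at or below it.

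**Figure D5:**
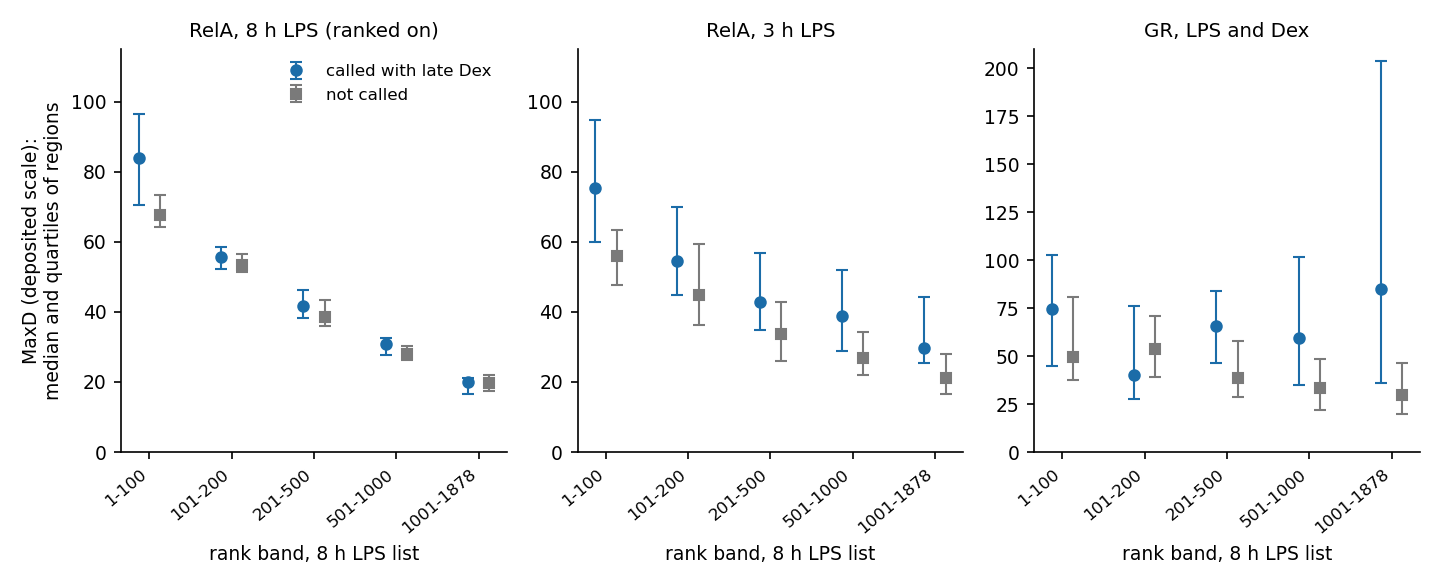
Points and whiskers are the median and quartiles of MaxD over regions in 5 bands of rank, for regions called with late Dex (circles) and not called (squares), in the 8 h RelA library used for ranking, the 3 h RelA library and the GR library of LPS and Dex. Kept regions have the higher 3 h median in all 5 bands, and the higher GR median in 4 of 5, the band of ranks 101 to 200 being the exception.

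GR of cells given Dex without LPS met 65 of the 202 kept regions, 32.2% (26.1 to 38.9), and 280 of the 1676 uncalled ones, 16.7%, with 18.4% over the whole list. The bands of rank did not all go one way. In the highest 50, 19 of 23 regions with such GR were kept and 26 of 27 without, and in the highest 100 it was 26 of 35 and 45 of 65. In ranks 101 to 200, 42.3% (25.5 to 61.1) of 26 were kept with it and 45.9% (35.1 to 57.2) of 74 without. In ranks 201 to 500 the shares were 27.1% (17.4 to 39.6) of 59 and 12.4% (8.86 to 17.2) of 241, in ranks 501 to 1000 they were 6.90% of 87 and 4.84% of 413, and below rank 1000 they were 4.35% of 138 and 1.08% of 740. The GR libraries were cross-linked differently from the RelA libraries, and the labels give no hours of treatment for them.

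Few 8 h regions had RelA in resting or pretreated cells, and these were mostly kept. RelA at 0 h met 36 of the 1878 regions, 1.92%. Of the 36, 25 were among the kept, where 10.8% of the whole list were kept. All 12 of them in the highest 50 were kept, against 33 of the 38 others there. Of the 20 in the highest 100, 16 were kept, against 55 of the 80 others; their median MaxD at 8 h was 93.6, against 75.01. RelA of cells given Dex for 3 h without LPS met 30 regions, 1.60%, of which 24 were kept. In the highest 100 this was 17 of 18, 94.4% (74.2 to 99.0), against 54 of the 82 others, 65.9% (55.1 to 75.2). The 18 were also the stronger ones, with a median MaxD at 8 h of 89.9 against 74.3.

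RelA of cells pretreated with Dex for 3 h before 3 h of LPS met 12 of the 8 h regions, 0.639%. Of the 12, 11 were called with late Dex, where the whole list had 10.8%. In the highest 100, 6 of 6 such regions were kept, against 65 of the 94 others. These 6 were also the stronger ones, with a median MaxD at 8 h of 95.8 against 75.5. The 12 included ranks 3, 7 and 28. At chr10:18734654-18735834 (rank 3) the MaxD was 25.7 in that pretreated library, against 55.5 with late Dex. At chr19:6945026-6945968 (rank 7) it was 16.6 there and 20.1 with pretreatment and 8 h of LPS, against 46.2 with late Dex. At chr2:167602622-167603530 (rank 28) it was 17.9, against 43.3 with late Dex.

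The regions of late Dex alone were few and weak. Of the 225 late regions 89.8% met the list without Dex, and this held for each of the highest 50. The 23 regions of late Dex alone had a median MaxD of 18.0, and the strongest stood at rank 57 of the late list. It was chr18:62326399-62326964, with a MaxD of 28.9 with late Dex and 42.8 at 3 h of LPS. The next was chr13:42469443-42470078, with 28.2 with late Dex, 61.6 at 3 h and a GR MaxD of 245 with LPS and Dex. At chr1:80599687-80600187 the values were 24.5, 70.9 and 326. At chr8:130768079-130768482 the MaxD was 23.3 with late Dex and 20.0 at 3 h. The fifth, chr6:116092279-116092606, had 22.7 and was not called at 3 h.

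In all, 13 of the 23 were called at 3 h of LPS, 56.5% (36.8 to 74.4), where the whole late list had 94.2%. A GR region of LPS and Dex was present at 16 of the 23, where the late list had 95.1%, and GR of Dex met 7, where it had 31.6%. The 23 fell into a set of 17 with a MaxD of 15.6 to 28.9 and a set of 6 with 4.04 to 7.78, a division made after the values were seen. The 17 held all 13 regions called at 3 h and 15 of the 16 with GR of LPS and Dex. None of the 6 was called at 3 h, and 1 met GR of LPS and Dex.

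Kept regions were narrower with late Dex, and their centres lay close to those without Dex. Their median width was 752.5 bp without Dex and 477.5 bp with late Dex, with a median ratio of 0.635. The centres lay a median of 29.5 bp apart (upper quartile 58.9 bp). Kept regions share at least 1 bp by the matching rule, so a region that had moved away could not enter this distance. Of the 29 regions of the highest 100 that were not called, none had a late Dex region within 1000 bp and 1 had one within 10000 bp.

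Regions that lay close together were kept at a somewhat higher share than single ones. When the 1878 regions were joined into loci across gaps of up to 10000 bp, 1367 stood alone and 9.58% of these were kept (8.13 to 11.3). The other 511 regions formed 222 loci, and 13.9% of these regions were kept (11.2 to 17.2), so the intervals touched. Across gaps of up to 50000 bp the shares were 8.76% (7.13 to 10.7) of 959 single regions and 12.8% (10.8 to 15.2) of 919 others. The strength of the regions was not matched in these comparisons. At the 10000 bp gap, a kept region was present in 58 of the 222 loci, and in 53 of the 58 the strongest region of the locus was kept. All regions of the locus were kept in 8. Of the 12 loci with 4 to 7 regions, 7 held a kept region, in each case the strongest 1, and none kept all. Strength was not matched in these counts either, and over the whole list the share kept was highest at the strongest regions. By chromosome, the lowest share kept was 1 of 48 on chromosome X, 2.08% (0.369 to 10.9). The highest was 11 of 58 on chromosome 19, 19.0% (10.9 to 30.9). These were the extremes of all chromosomes, with 10.8% over the whole list. Strength differed too, as 2 of the 48 and 8 of the 58 were in the highest 200.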

How the data were processed

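RelA was profiled by ChIP-seq in 7 libraries, GR in 2, and input DNA in 1, with 1 library per condition. Formaldehyde (1%, 10 min) fixed the RelA samples, per the labels' protocols, and the GR samples had a further cross-linker. The authors deposited 1 list of regions per library on mm9, per the submitters' processing notes. CASAVA is named there too, and the region caller, its threshold and the depth are not given in the sources used here. Each deposited list gives the highest (MaxD) and mean (AveD) tag density as signal values and a p-value per region, per the file headers. The z-score of each region is the authors' score as deposited, with no account of its making in the headers. These are the authors' own values, and the deposited p-value was not used beyond a check of its range. The lowest z-score was 10.9 without Dex and 9.85 with late Dex, so the 2 lists began at different scores.

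Regions meeting an input region by 1 bp or more were left out of every ChIP list, and lists were matched by a shared 1 bp in Python 3.11.15 with pandas 2.3.3 and numpy 2.4.6; scipy 1.17.1 gave the Wilson 95% intervals. The matching was tested on simulated lists with known overlaps. The scaling of MaxD between libraries is unknown. The comparison, the rank measure and the lists set beside it were chosen with earlier results of these data known. Named regions were the 10 strongest kept, the 10 strongest uncalled, the 5 strongest of late Dex alone, the 3 lowest-ranked kept and the 3 highest and 3 lowest ratios of rank bin 1; the 5 highest of all ratios, the 10 strongest of the late list and the regions of the pretreated library were added after the values were seen. The gene and promoter tables at hand are on another build, so no gene names or sequences are given.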

Additional observations from a re-analysis of the deposited data

How the results depend on the processing

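The 4 main values (share kept, regions of late Dex alone, share of the highest 100 kept, median MaxD ratio) were recomputed under 10 alternatives, and 32 of the 40 values stayed within the 95% interval or, for the count of late Dex alone, within 1.5 times of it. With matches limited to overlaps of 50% of each region, 8.09% of regions were kept and 73 stood in the late list alone. With z-scores of at least 10.9 in both lists, 8.57% were kept and 11 were in the late list alone. With input-overlapping regions kept, 42 were in the late list alone. In the stronger 50% of each list, 10 were in the late list alone and 55.0% of the highest 100 were kept. The median ratio of z-scores was 0.378. Some of these shifts are set by construction. The 50% overlap rule can only remove matches, and keeping input-overlapping regions adds 25 regions with late Dex and 12 without Dex. The z-score bound shortens only the late list, and the stronger 50% setting shortens both. The cause of the shifts was otherwise not tested. The remaining settings (centres within 250 bp, gaps up to 1000 bp, input coverage of at least 50%, merging within 500 bp, ranking by AveD) moved no value out of its interval, and the ratio stayed below 1 in all 10. No paired analysis was possible because each condition had 1 library. Depth is not known, so a region not called with late Dex is not shown to lack RelA.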
